A study of Mus musculus with 24 samples.

Results

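Bulk RNA sequencing of pancreatic islets was used to describe the genes that moved the same way on day 2 of recovery from partial pancreatectomy (PPTx, in which 50% of the pancreas is cut away) in young and in old mice. Of the 24 libraries of the series, 16 entered: 4 from young controls, 4 from young mice at day 2, 4 from old controls and 4 from old mice at day 2. Per the study's methods, all animals were male C57BL/6J mice, 8 weeks old (young) or 52 weeks old (old), controls had no operation of any kind, and islets of 1 or 2 mice made up a sample. A sham operation was therefore not part of these contrasts, and a pool of animals can stand behind a library. The change at day 2 was averaged with equal weight for each age, and a gene counted as shared where this average passed the test and the change had the same sign in young and old islets. It did so in 394 of 14705 genes tested, 216 of them higher and 178 lower at day 2.

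Islets are clusters of endocrine cells set in the digestive (acinar) tissue of the pancreas. Beta cells make insulin and alpha cells make glucagon. The Reg3 genes encode secreted C-type lectins of the regenerating islet-derived family, which inflamed or injured pancreas and gut are known to produce. Cytokines of the interleukin 6 type act through receptors and JAK kinases on STAT3, a transcription factor that binds palindromic sites with TTC and GAA ends and raises SOCS3, which in turn dampens the receptors. CISH is the related inhibitor downstream of STAT5, the factor that carries prolactin and growth hormone signals in islets.

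To show the sequence context of this pathway, the promoters of Reg3b, Cish and Socs3 are printed from RefSeq (build GRCm38.p6), 250 bases before to 50 bases after the gene start, read 5′ to 3′ on the strand of the gene. They are the promoters of the largest shared rises that held the STAT motif TTCNNNGAA, and its matches stand in capitals. The Reg3b window is chr6:78370635-78370934 (plus strand), the Cish window chr9:107296409-107296708 (plus strand) and the Socs3 window chr11:117969317-117969616 (minus strand).
Reg3b: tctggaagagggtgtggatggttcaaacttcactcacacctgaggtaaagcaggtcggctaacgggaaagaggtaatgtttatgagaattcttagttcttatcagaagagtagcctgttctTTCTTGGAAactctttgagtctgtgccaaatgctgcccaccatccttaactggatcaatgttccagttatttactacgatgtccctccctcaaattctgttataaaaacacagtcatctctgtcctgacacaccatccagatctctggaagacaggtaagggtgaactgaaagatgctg
Cish: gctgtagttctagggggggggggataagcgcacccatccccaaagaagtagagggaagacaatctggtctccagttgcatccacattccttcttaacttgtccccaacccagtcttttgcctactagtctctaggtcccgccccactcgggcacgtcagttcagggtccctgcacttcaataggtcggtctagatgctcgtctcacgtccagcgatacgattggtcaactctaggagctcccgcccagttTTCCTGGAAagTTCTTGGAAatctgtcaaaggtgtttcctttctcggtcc
Socs3: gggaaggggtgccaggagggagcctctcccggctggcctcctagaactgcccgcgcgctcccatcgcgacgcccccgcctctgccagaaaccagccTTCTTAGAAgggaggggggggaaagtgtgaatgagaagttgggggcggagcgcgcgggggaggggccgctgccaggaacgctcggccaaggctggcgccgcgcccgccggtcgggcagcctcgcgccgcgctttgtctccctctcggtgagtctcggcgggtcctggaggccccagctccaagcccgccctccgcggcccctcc
The match begins 129 bases before the start in Reg3b and 154 bases before it in Socs3, and in Cish one match begins at the start itself and another 11 bases after it. Of the 15 largest shared rises, 11 had a promoter in the table and 3 of those 11 (27.3%) held the motif. Of the 15 largest shared falls, 10 had one and only that of Tgtp2 held it. The background was 8.30% of all 32851 promoters and 7.32% of the 12447 promoters of genes tested. Over all shared rises, 17 of 200 promoters (8.50%) held the motif, and over all shared falls 14 of 150 (9.33%). The E-box CACGTG stood in 14.5% of the promoters of shared rises and 10% of those of shared falls, beside 9.34% for the genes tested. The AP-1 motif TGANTCA stood in 6% and 4.67%, beside 6.12%. Each of these motifs was searched on both strands and reads the same on either. A match describes letters in a window and is not a measured binding site.

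Total counts ran from 3924105 to 11349494 a library in the 16 libraries, and 23.2 to 55.3% of mapped reads fell in genes. The 2 run labels did not split the groups evenly, since the second was carried by replicates 3 and 4 of old islets alone, in controls and at day 2. Markers of acinar cells, a tissue that islet isolation can leave attached, differed widely in summed level. They ran from 43845 to 153569 CPM (counts scaled to library size, with TMM factors) in young controls and from 1246 to 11706 in young day 2 libraries, whereas they lay between 2254 and 16811 CPM in old controls and between 2433 and 45613 CPM in old day 2 libraries. The 2 young groups did not overlap, so in young islets the acinar level and the surgery cannot be told apart. None of the 27 acinar markers in the files was at 0 in all 16 libraries, and the acinar level was run as a covariate for every gene, an alternative chosen after seeing the data. With it, 43 of the 86 named genes that were called lost their calls, as did 55 with libraries of 1 collection code treated as correlated (limma), 29 in the first run only and 62 with only the second run for old islets. The collection code is a number in the names of the deposited data, and no label says what it stands for. Each code fell wholly in controls or wholly in day 2 libraries of 1 age, and old replicates 3 and 4 had none. That fit also used limma in place of edgeR, so its lost calls cannot be laid to the code alone. The summed level of the 28 beta cell genes was 105343 to 179858 CPM over the 16 libraries. Its average difference, day 2 minus control, was -25244 CPM (exact permutation test within ages, two-sided, adjusted p = 0.0612 over 12 measures, smallest p possible 0.000408).

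Across the transcriptome, the average change passed a Benjamini-Hochberg adjusted p of 0.05 in edgeR's quasi-likelihood test (hereafter, was called) for 424 genes (2.88% of those tested), 234 higher (1.59%) and 190 lower (1.29%). The signs at the 2 ages were the same in 394 of these (2.68%). Choice by the average favours genes with like signs, so this count was partly given beforehand. Shared rises numbered 216 (1.47%) and shared falls 178 (1.21%). At an unadjusted p below 0.05 the average passed for 2393 genes (16.3%), both directions together. DESeq2 called 460 genes higher and 375 lower, and limma on RPKM called 1951 and 75. These are the backgrounds for the looser counts given with the lists below. The average does not ask that a gene pass at each age. Among the 394 genes, the change was larger in young islets for 328, the unadjusted p was below 0.05 in young islets for 373 and in old islets for 186, and in both for 165. The median log2 fold change of shared rises was 0.58 in young and 0.22 in old islets, and that of shared falls was -0.64 and -0.33. A gene could thus be called mainly from its young libraries, and values at each age are given throughout.

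The stricter question is whether a gene passed at each age by itself. With the larger of the p-values at the 2 ages, 216 genes had an unadjusted p below 0.05 and the same sign (1.47%), 109 higher (0.741%) and 107 lower (0.728%). After adjustment for all genes none remained by edgeR, the lowest adjusted p being 0.422, whereas DESeq2 gave 8 and limma on RPKM 1. The 8 from DESeq2 were Gad1, Rgs4, Dpp10, Trpm5, Slc2a2, Ttr, Tnr and the joint row of Baiap3 and Tsr3, and limma gave Rgs4. In the average, limma on RPKM called 1951 genes higher and 75 lower, so a lack of falls by limma in the lists below says little. With the replicate number as a block within each age the count was 4 (Rgs4, Reg3g, Reg3a and Slc2a2), with the block in old islets only it was 0 (324 unadjusted), and with the acinar level as a covariate 4 (Reg3a, Reg3b, Reg3g and Reg2). Under that covariate the young change of Reg2 was 4.63, whereas Reg2 did not rise in young islets in the main fit. When each age was adjusted on its own, 3 genes were below 0.05 in young and in old islets: Rgs4, higher, and Trpm5 and Dpp10, lower. All 4 day 2 libraries lay on one side of the 4 controls at both ages for 78 genes (0.530%), 39 in each direction (0.265%), and 67 of the 78 were called.

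The number of called genes rested on single libraries and on the model. It was 59 with only the second run for old islets and 103 with libraries of 1 collection code treated as correlated. With the replicate number as a block within each age it was 1030, and with the block in old islets only, where the numbers follow the run label, 805. It moved by over 1.5 times without old control replicate 1 (263), 2 (278) or 3 (252), old day 2 replicate 1 (245) or 2 (214), young control replicate 1 (181) or 2 (170), and young day 2 replicate 2 (191) or 3 (182). With the acinar level as a covariate it was 173, of which 144 were among the 424.

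**Figure D1:**
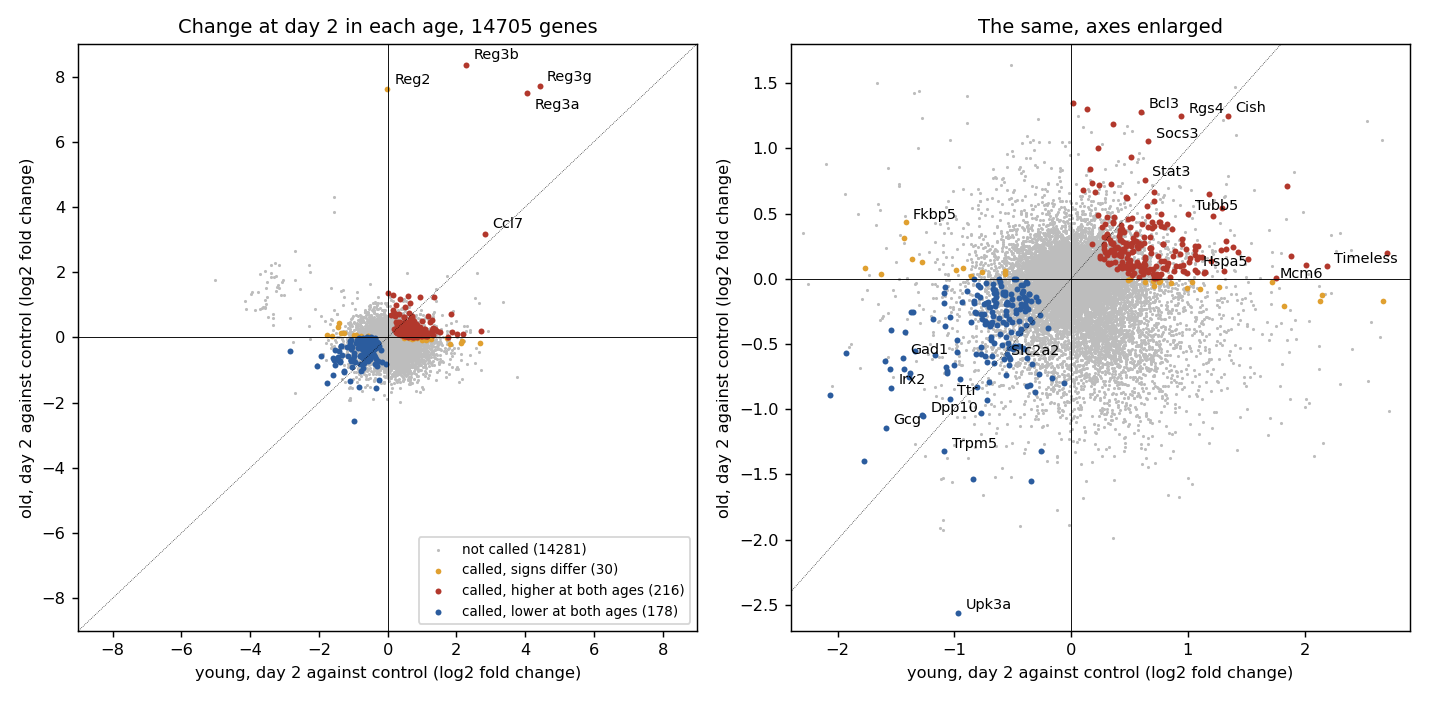
Log2 fold change at day 2 against control in young (x axis) and old islets (y axis), one point per gene tested. The left panel covers the full range and the right panel the middle of it. Points mark the 216 genes called and higher at both ages, the 178 called and lower at both, the 30 called with opposite signs and the 14281 not called. Most shared genes lie nearer to the young axis, and the Reg3 genes lie far out in old islets.

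Reg3g, Reg3a and Reg3b had the largest shared rises by the smaller of the changes at the 2 ages, among genes with a mean log2 CPM above 1. These 3 genes lie with Reg2 within chr6:78320879-78418868 of mm9, Reg3b at 78320879-78323460, Reg3a at 78330703-78333833 and Reg2 at 78355149-78358091 on the plus strand and Reg3g at 78416262-78418868 on the minus strand. Of 7 family members in the files 6 were tested and 4 were called, all higher (background 1.59%).

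Reg3g was read 0, 0, 4 and 6 times in the young controls and 15, 31, 204 and 27 times in the young day 2 libraries. In old islets it was read 1, 0, 4 and 2 times in controls and 14, 126, 672 and 1068 times at day 2. No day 2 library overlapped the controls of its age, but the day 2 libraries differed among themselves from 3.43 to 21.8 CPM in young and from 1.47 to 119 CPM in old islets. The average log2 fold change was 6.06 ± 0.94 (SE, adjusted p = 0.00347), with 4.43 in young and 7.70 in old islets. Since controls held 0 to 6 reads, the size of this value depends on the prior count that the model adds.

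Reg3a was at 0, 0.309, 0.3 and 0.622 CPM in the young controls and at 2.06, 3.44, 13.9 and 1.86 CPM at day 2, and at 0, 0, 0.396 and 0.129 CPM in the old controls and at 5.16, 5.61, 32.4 and 76.9 CPM at day 2. It too stood apart at both ages, with an average log2 fold change of 5.79 ± 0.84 (adjusted p = 0.00285). Reg3b was detected in young controls, at 9.91, 10.2, 3.0 and 10.1 CPM, against 20.3, 26.5, 96.8 and 14.4 CPM at day 2. In old islets it went from 0.122, 0, 0.396 and 1.93 CPM in controls to 21.5, 47.9, 194 and 557 CPM at day 2. The groups did not overlap at either age, and the average log2 fold change was 5.33 ± 0.77 (adjusted p = 0.00285).

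The difference between ages, young less old, was -6.08 for Reg3b on the log2 scale (95% interval -9.50 to -2.65) and missed the threshold (adjusted p = 0.0853). The intervals for Reg3g (-8.81 to 2.26) and Reg3a (-8.19 to 1.31) included 0. Reg2, whose product is a further secreted family member, was not a shared rise. It was at 4.503, 7.87, 7.801 and 59.7 CPM in young controls and 9.37, 15.2, 45.5 and 6.65 CPM at day 2, but at 0.6095, 0.7098, 1.19 and 1.42 CPM in old controls and 17.3, 38.8, 154 and 585 CPM at day 2. The change was -0.01 in young and 7.62 in old islets, and the difference between ages passed the test (young less old -7.63, adjusted p = 0.049).

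Acinar marker levels in the old day 2 libraries were 2433, 4959, 9982 and 45613 CPM in replicates 1 to 4, the same order as their Reg3g, Reg3a, Reg3b and Reg2 levels. Young day 2 replicate 3, with the highest Reg3 levels of its group, also had the highest acinar level of that group, 11706 CPM. Young controls had higher acinar and lower Reg3 levels than young day 2 libraries. Among controls, young islets had higher acinar levels than old and more Reg3b (3.0 to 10.2 against 0 to 1.93 CPM), while Reg3g and Reg3a were low at both ages. Whether Reg levels followed acinar tissue was not tested. With the acinar level as a covariate the average change of Reg3g was 7.38, of Reg3a 6.89 and of Reg3b 6.42, and all 6 tested family members were called. With libraries of 1 collection code treated as correlated, none of the 6 was called, and no member had an unadjusted p below 0.05.

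**Figure D2:**
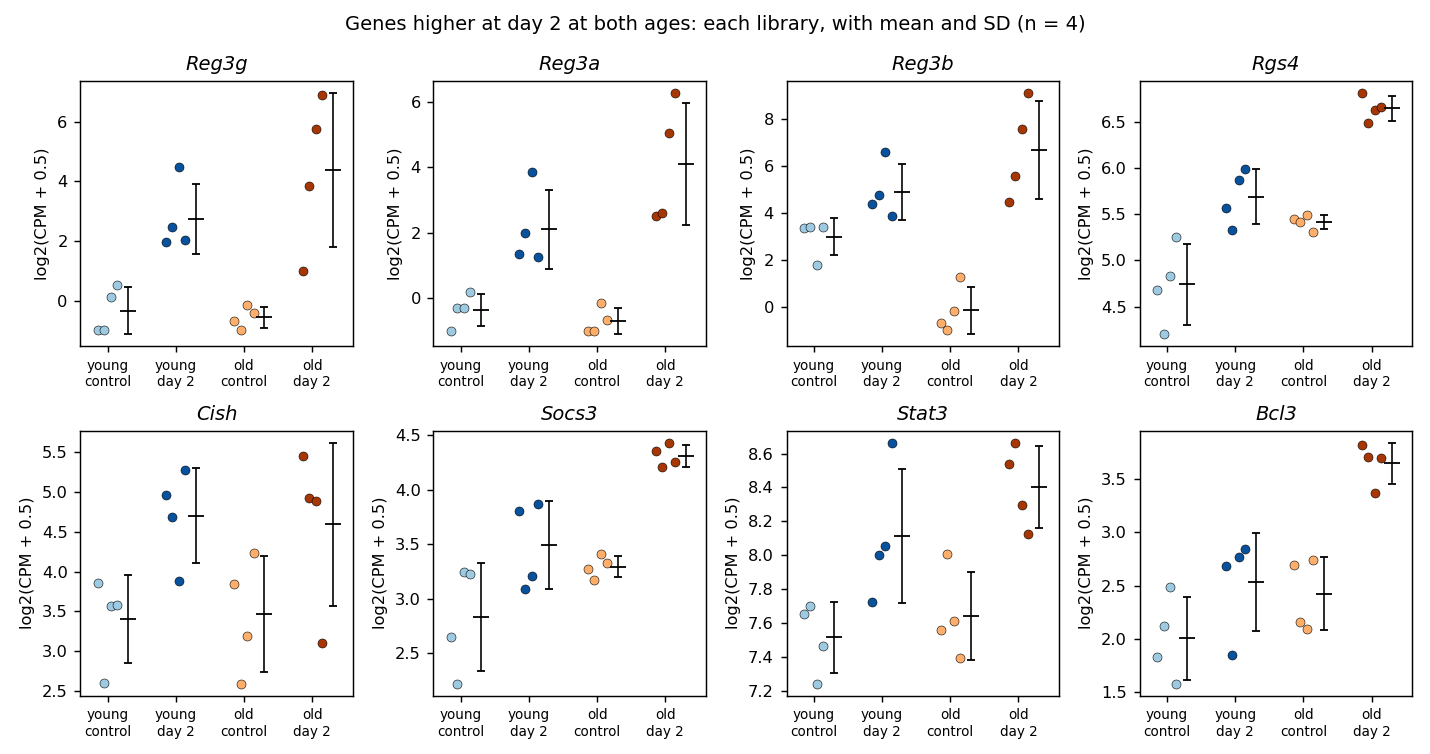
Log2(CPM + 0.5) of 8 genes that rose, one panel per gene, with a point per library and the mean ± SD of the 4 libraries in young control, young day 2, old control and old day 2 islets. Reg3 genes spread over several log2 units at day 2, whereas the Rgs4 and Stat3 points at day 2 all lie above the controls of the same age.

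Stat3, its feedback inhibitor Socs3 and 2 other members of the list fixed around STAT3, Bcl3 and Cish, rose, while a receptor chain was called lower. Of the 21 tested members of the list of STAT3, cytokine receptors and SOCS feedback, 4 were called higher (Socs3, Stat3, Bcl3 and Cish) and 2 lower (Il6ra and Pim3), against 1.59% and 1.29% of all genes. The median change of the list was 0.01, beside -0.01 for all genes tested. With libraries of 1 collection code treated as correlated 1 was called higher and 1 lower, and Socs3, Bcl3 and Cish lost their calls.

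Stat3 (mm9, chr11:100746412-100800854) was at 201, 208, 151 and 176 CPM in young controls and 211, 256, 266 and 405 CPM at day 2. In old islets its controls had 188, 257, 195 and 168 CPM, against 371, 404, 314 and 278 CPM at day 2. Every day 2 library was above every control of its age, closely so in young islets, and the average change was 0.69 ± 0.13 (adjusted p = 0.0104; 0.63 young, 0.76 old).

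Socs3, the feedback inhibitor (chr11:117827393-117831361), was at 5.76, 4.17, 9.001 and 8.87 CPM in young controls and 13.5, 8.02, 8.75 and 14.1 CPM at day 2, so that young groups overlapped. Its old controls were at 9.14, 8.52, 10.1 and 9.52 CPM and its old day 2 libraries at 19.99, 17.9, 21.03 and 18.6 CPM, well apart. The average change was 0.86 ± 0.16 (adjusted p = 0.00879), and the interval of young less old ran from -1.06 to 0.28. Bcl3, an atypical IκB protein that partners NF-κB subunits, showed the same pattern, with overlap in young islets (3.06, 3.86, 5.1 and 2.49 CPM in controls, 5.94, 3.11, 6.296 and 6.65 CPM at day 2) and none in old (5.97, 3.98, 3.77 and 6.18 CPM in controls, 13.6, 12.5, 9.84 and 12.5 CPM at day 2). Its average change was 0.94 ± 0.19 (adjusted p = 0.0151).

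Cish (chr9:107198357-107205115) was at 14.05, 5.56, 11.4 and 11.5 CPM in young controls and 30.6, 25.2, 14.3 and 38.3 CPM at day 2, without overlap. Its old controls held 13.9, 5.54, 8.62 and 18.4 CPM, against 43.3, 29.9, 29.2 and 8.13 CPM at day 2, and replicate 4 lay among the controls. The changes at the 2 ages were of like size (1.35 and 1.25), but the average (1.30 ± 0.32, adjusted p = 0.0362) was called in only 3 of 16 fits that left out a library. The second run alone gave an old change of 0.53 and the first 1.89.

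Il6ra, the receptor chain for interleukin 6, was called lower on average (-0.42 ± 0.073, adjusted p = 0.00669), yet only its young libraries moved. It fell from 88.8, 95.4, 80.3 and 86.3 CPM to 45.02, 42.6, 43.2 and 62.4 CPM in young islets and was at 87.3, 79.9, 81.7 and 81.1 CPM in old controls and 86.1, 85.6, 83.00 and 79.9 CPM in old day 2 libraries. The difference between ages passed the test (adjusted p = 0.0204). With the acinar level as a covariate the average changes were 0.46 for Stat3 (adjusted p = 0.0974), 0.79 for Socs3 (0.0646), 0.93 for Bcl3 (0.0677) and 0.74 for Cish (0.462), so that none of the 4 was called. Within the old islets of each run label, first and second, the change was 0.80 and 0.72 for Stat3 and 1.10 and 1.03 for Socs3.

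A rise that held under every model run was that of Rgs4 (chr1:171671608-171677773), a GTPase-activating protein that shortens signals from Gi- and Gq-coupled receptors. Rgs4 was at 25.03, 17.9, 27.9 and 37.8 CPM in young controls and 46.8, 39.8, 58.1 and 63.3 CPM at day 2, and at 43.3, 42.2, 44.7 and 39.2 CPM in old controls and 112, 89.4, 98.6 and 101 CPM at day 2. No libraries overlapped within an age, and its change was 0.94 in young islets (adjusted p = 0.0064) and 1.24 in old islets (adjusted p = 0.0142), averaging 1.09 ± 0.12 (adjusted p = 0.00103). It was called in all 16 alternatives and in all 16 fits without a library, and was 1.24 in the first and 1.26 in the second run of old islets. Of the 15 tested members of the RGS family it was the only one called (background 1.59% higher), and the family median was -0.17.

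Among chemokine and NF-κB genes, Ccl7, Csf1 and Relb rose. Of 28 tested genes of inflammation, cytokines and chemokines, 3 were called higher (Ccl7, Csf1 and Relb) and 1 lower (Nfkb1), against 1.59% and 1.29% of all genes, with a median of 0.11. With the acinar covariate 1 was called higher, and none was with the collection code by limma (4 unadjusted) or in the first run by edgeR (5 unadjusted). Ccl7, a chemokine for monocytes, was near the detection limit, with 0, 1, 0 and 3 reads in young controls, 13, 3, 5 and 9 at young day 2, 2, 1, 2 and 1 in old controls and 11, 13, 35 and 15 at old day 2. The groups were apart at both ages, and its average change was 3.01 ± 0.56 (adjusted p = 0.00936). Csf1, the macrophage growth factor, changed by 0.55 ± 0.13 (adjusted p = 0.0289) and Relb, a subunit of the alternative NF-κB pathway, by 0.60 ± 0.14 (adjusted p = 0.035), whereas Nfkb1, the precursor of the classical subunit p50, fell by 0.43 on the log2 scale (adjusted p = 0.023).

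Relb stood apart at both ages, at 2.52, 3.55, 3.0 and 3.89 CPM in young controls and 4.11, 6.71, 4.38 and 5.19 CPM at day 2, and at 8.05, 7.52, 5.75 and 8.36 CPM in old controls and 12.7, 9.79, 11.6 and 9.46 CPM at day 2. Its call held in 4 of 16 fits without a library, and that of Csf1 in 8. With the acinar covariate the adjusted p was 0.154 for Relb and 0.111 for Csf1. Ccl6, another chemokine, had an average change of 1.28 ± 0.32 (adjusted p = 0.0418) with overlap at both ages and a call held in 4 of 16 (adjusted p = 0.221 with the acinar covariate). Summed leukocyte markers were 262 to 332 CPM in young controls, 214 to 301 CPM in young day 2 libraries, 424 to 610 CPM in old controls and 410 to 512 CPM in old day 2 libraries, an average difference of -45.03 CPM (exact permutation test, adjusted p = 0.223). Of 26 leukocyte markers tested none was called higher by edgeR, 3 having an unadjusted p below 0.05, while DESeq2 called 1 and limma 3. Called lower were 4, namely the complement gene C1qa (-0.47 ± 0.097) and the class II antigen presentation genes H2-Ab1 (-0.50 ± 0.12), H2-Eb1 (-0.53 ± 0.13) and H2-Aa (-0.46 ± 0.11). The median of the list was 0.20, with 12 members higher and 7 lower at both ages. None of the 4 falls was called by limma (5 unadjusted), which called few falls among all genes, or with the collection code (4 unadjusted).

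Other shared rises covered surface proteins, a clock gene and the cytoskeleton. Folr1, a folate receptor, was at 39.6, 25.3, 39.5 and 23.5 CPM in young controls and 45.02, 51.7, 47.3 and 65.1 CPM at day 2, and at 39.7, 38.8, 34.6 and 36.8 CPM in old controls and 54.6, 85.1, 56.2 and 41.97 CPM at day 2, apart at both ages (0.69 ± 0.14, adjusted p = 0.0182). Tspan8, a tetraspanin, was also apart at both ages, with changes of 0.71 and 0.60 in young and old islets (0.65 ± 0.14 on average, adjusted p = 0.0179). Folr1 and Tspan8 lost their calls with the acinar covariate (adjusted p = 0.173 and 0.106), with the collection code and with only the second run for old islets. Car15, a carbonic anhydrase, changed by 0.72 ± 0.17, the centromere gene Apitd1 by 0.91 ± 0.23 and Fam167a by 0.92 ± 0.22 (adjusted p = 0.0307, 0.0461 and 0.0352). The calls of Car15, Apitd1 and Fam167a held in 6, 1 and 4 of 16 fits without a library.

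Cry1, a repressor in the circadian clock, was at 14.6, 12.96, 10.95 and 13.2 CPM in young controls and 25.1, 25.2, 20.5 and 17.7 CPM at day 2, and at 19.4, 22.9, 21.2 and 18.5 CPM in old controls and 26.2, 30.8, 25.5 and 25.9 CPM at day 2. It stood apart at both ages (0.59 ± 0.092, adjusted p = 0.00347) and was the only 1 of 15 clock genes called (background 1.59% higher), the median of the list being -0.17. The hour at which islets were taken was not analysed here.

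Tubulin and ribosome biogenesis genes were also called higher. Both lists were set up after their values were seen, so their counts are descriptions. Of 14 tubulin genes tested 7 were called higher and none lower, beside 1.59% and 1.29% of all genes, with a median of 0.48. No tubulin had an unadjusted p below 0.05 for a fall by edgeR, and DESeq2 and limma also called none lower. Tubb5, a beta-tubulin, was at 36.4, 33.6, 54.9 and 49.9 CPM in young controls and 92.3, 89.2, 97.1 and 72.5 CPM at day 2, and at 34.6, 42.4, 35.8 and 41.9 CPM in old controls and 47.04, 58.1, 61.02 and 52.2 CPM at day 2. Its groups were apart at both ages, and its change of 0.75 ± 0.10 (adjusted p = 0.00218) kept its call in every fit run. The other called tubulins were Tuba1c, Tuba1b, Tubb2a, Tubg1, Tuba1a and Tubb2b, with young changes of 0.66 to 0.83 and old changes of 0.12 to 0.48. Some tubulin copies are near-identical, and only reads with a unique position were counted, so reads common to such copies may be missing. With the acinar level as a covariate Tubb5 was the 1 tubulin called.

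Of 40 ribosome biogenesis genes tested, 6 were called higher (Rrp12, Fbl, Ltv1, Mphosph10, Mybbp1a and Nop58) and none lower, by edgeR, DESeq2 or limma, and no gene had an unadjusted p below 0.05 for a fall. Over all genes tested, 1.59% were called higher and 1.29% lower by edgeR. The list median was 0.14, with 0.17 in young and 0.13 in old islets. Rrp12, needed for export of pre-ribosomes, rose by 0.62 ± 0.10 and Fbl, the rRNA methyltransferase fibrillarin, by 0.45 ± 0.097 on average (adjusted p = 0.00401 and 0.0214), Fbl with groups apart at both ages. With the acinar level as a covariate 2 were called, and in the first run 1.

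Some genes were called in the average although they moved mainly in young islets. Of 51 S phase genes tested 15 were called higher (background 1.59%) and none lower (none had an unadjusted p below 0.05 for a fall, and neither DESeq2 nor limma called one lower), with a median of 1.36 in young and -0.06 in old islets. The 15 became 4 with the collection code and 6 in the first run only. Mcm6, a subunit of the replicative helicase, was at 21.97, 23.1, 31.2 and 26.8 CPM in young controls and 103, 76.8, 105 and 56.02 CPM at day 2, but at 19.7, 22.00, 19.6 and 20.2 CPM in old controls and 14.8, 19.7, 22.7 and 22.8 CPM at day 2. The young change was 1.72 and the old -0.02, and the difference passed the test (adjusted p = 0.0118). The same was found for Mcm2, Rrm1 and Timeless, with young less old differences of 1.91, 1.06 and 2.09. None of the 51 had an unadjusted p below 0.05 with the same sign at both ages.

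The ER stress and folding list had 7 of 29 genes called higher (background 1.59%) and none lower, with a median of 0.50 in young and 0.04 in old islets (0 genes had an unadjusted p below 0.05 for a fall by edgeR, and DESeq2 and limma called 0 lower). The 7 became 3 with the collection code and 2 in the first run only. Hspa5, the chaperone BiP, was at 1671, 1775, 2157 and 2014 CPM in young controls and 4347, 4149, 3829.6 and 3609.7 CPM at day 2, and at 2618, 2888, 1959 and 1876 CPM in old controls and 2619, 2623, 2077 and 2482 CPM at day 2. Its difference between ages passed the test (0.996, adjusted p = 0.0403), as did that of the ER factor Creld2 (1.36, adjusted p = 0.0375). No list member had an unadjusted p below 0.05 at both ages, and the old values of Hspa5 overlapped between control and day 2. Over all genes the difference between ages was called for 105 (0.714%), and 45 of the 424 called in the average were among them (0.306% of all genes tested).

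**Figure D3:**
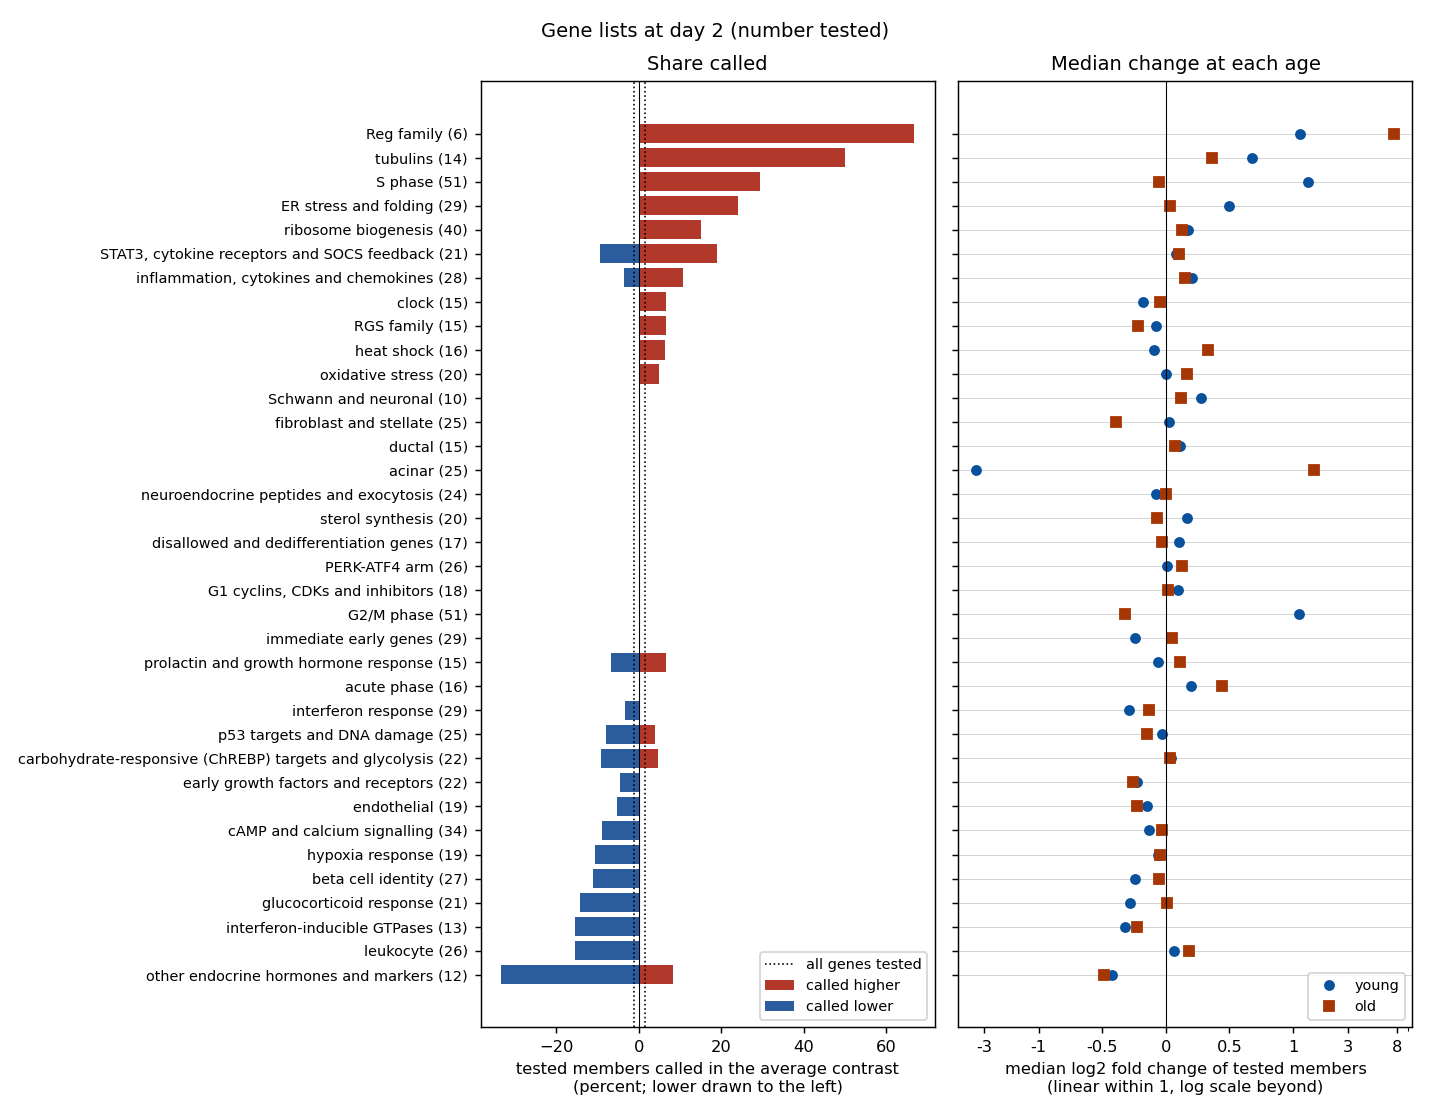
Gene lists by the share of tested members called higher or lower in the average change (left) and by the median log2 fold change in young and old islets (right, symmetric log axis). Dotted lines mark the share of all genes called, 1.59% higher and 1.29% lower. The Reg family leads in the left panel and, for old islets, in the right panel, whereas the S phase list has the highest median in young islets. S phase and ER lists have medians near 0 in old islets.

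The shared falls included genes of the alpha cell. Of the 12 tested endocrine genes other than those of beta cells, 4 were called lower, among them Ttr, Irx2 and Gcg, and 1 higher (Pyy), against 1.29% and 1.59% of all genes, with a median of -0.42 in young and -0.49 in old islets. Gcg, which encodes glucagon, was at 25386, 31864, 17747 and 20701 CPM in young controls and 13461, 5330.5, 6978 and 6185 CPM at day 2. Old islets had 14806, 26332, 14509 and 15686 CPM in controls and 14053, 7342, 6674 and 4253 CPM at day 2. All day 2 libraries were below the controls of their age, and the average change was -1.36 ± 0.25 (adjusted p = 0.00908; -1.58 young, -1.14 old). In bulk islets fewer alpha cells and less glucagon RNA per cell cannot be told apart. Per the study's methods the splenic side of the pancreas was removed, so day 2 islets came from the rest of the gland. Controls kept the whole gland, and a difference between regions of the pancreas cannot be told apart from a change after surgery.

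Ttr, transthyretin, which alpha cells make in quantity, was at 687, 892, 559 and 666 CPM in young controls and 348, 318, 383 and 317 CPM at day 2, and at 605, 786, 483 and 506 CPM in old controls and 477, 289, 261 and 228 CPM at day 2. It was apart at both ages and changed by -0.98 ± 0.15 (adjusted p = 0.00347). Irx2, a homeobox factor of alpha cells, was apart in young islets (16.9, 16.4, 12.8 and 11.8 CPM against 7.08, 3.44, 5.55 and 3.99 CPM at day 2) but overlapped in old (6.58, 9.796, 9.91 and 13.00 CPM against 6.63, 5.28, 6.67 and 3.34 CPM), with an average change of -1.19 ± 0.19 (adjusted p = 0.00383). Calls of Gcg, Ttr and Irx2 held in all alternatives and in all 16 fits without a library. Pyy, the gene of peptide YY, moved the other way (0.85 ± 0.19, adjusted p = 0.0232), with young groups apart (1265, 618, 1382 and 626 CPM in controls, 2292, 2243, 1739 and 2776 CPM at day 2) and an old change of 0.48. Its call was lost with the acinar covariate (0.55, adjusted p = 0.176), with the collection code, with only the second run for old islets and without old day 2 replicate 2 or young control replicate 2. The summed level of the 12 genes fell by 9055 CPM at day 2 on average (exact permutation test, p = 0.00327, adjusted p = 0.0392 over 12 measures). Without 1 library the adjusted p was 0.0122 to 0.0980, and it missed the threshold without old control replicate 2 (0.0637), old day 2 replicate 2 (0.0980), 3 (0.0882) or 4 (0.0669), young control replicate 2 (0.0686) and young day 2 replicate 2 (0.0865) or 3 (0.0539). Gcg alone differed by -15936 CPM in young and -9753 CPM in old islets, while the other 11 genes together differed by 5522 and 2056 CPM, a split made after seeing the data. Among these 11, Ppy, which was not called, differed by 4750 and 2120 CPM and Pyy by 1290 and 471 CPM. Ppy was at 1155.5 to 4899 CPM in young controls and 6471 to 10557 CPM at young day 2, without overlap. Its old groups overlapped (2105 to 5037 CPM in controls, 4664 to 7775 CPM at day 2). Ttr differed by -360 and -281 CPM and Sst by -100 and -220 CPM.

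Among beta cell genes, a channel and a glucose transporter fell at both ages. Of 27 tested genes of beta cell identity 3 were called lower (Trpm5, Slc2a2 and Nnat, background 1.29%) and none higher. An unadjusted p below 0.05 was found for 11 falls and 0 rises, beside 16.3% of all genes in both directions together. DESeq2 called 7 lower and 0 higher (375 and 460 over all genes), and limma 3 lower and 1 higher (75 and 1951). The list median was -0.24 in young and -0.05 in old islets. The call of Nnat held in 5 of 16 fits without a library and was lost with the acinar covariate (adjusted p = 0.175) and the collection code. Trpm5 (chr7:150255058-150280547), a calcium-activated cation channel that depolarises the beta cell, was at 74.9, 104, 59.6 and 60.2 CPM in young controls and 24.9, 39.1, 31.8 and 44.3 CPM at day 2. Old islets held 93.1, 105, 76.6 and 62.9 CPM in controls and 25.3, 35.5, 41.9 and 31.9 CPM at day 2. There was no overlap, and the change was -1.09 in young (adjusted p = 0.00893) and -1.32 in old islets (adjusted p = 0.0211), -1.20 ± 0.15 on average (adjusted p = 0.00115). In old islets of the first run it was -1.70 and of the second -0.90.

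Slc2a2, the glucose transporter GLUT2, was at 579, 623.8, 667 and 633 CPM in young controls and 329.8, 433, 421 and 495 CPM at day 2, and at 485, 496, 626 and 479 CPM in old controls and 312, 334, 389 and 328 CPM at day 2. It was apart at both ages with changes of nearly the same size, -0.58 and -0.61 (interval of young less old from -0.33 to 0.40), and -0.59 ± 0.086 on average (adjusted p = 0.00285). Gad1, the glutamate decarboxylase that makes GABA in islets, had the lowest p of all genes tested in the average. It was at 229.6, 279, 192 and 216 CPM in young controls and 77.9, 86.1, 73.8 and 100.2 CPM at day 2, and at 197, 218, 200.03 and 182 CPM in old controls and 136, 126, 116 and 144 CPM at day 2. Groups were apart at both ages (-1.02 ± 0.084, adjusted p = 2.09e-05), and the fall was larger in young islets (-0.83, adjusted p = 0.0372).

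**Figure D4:**
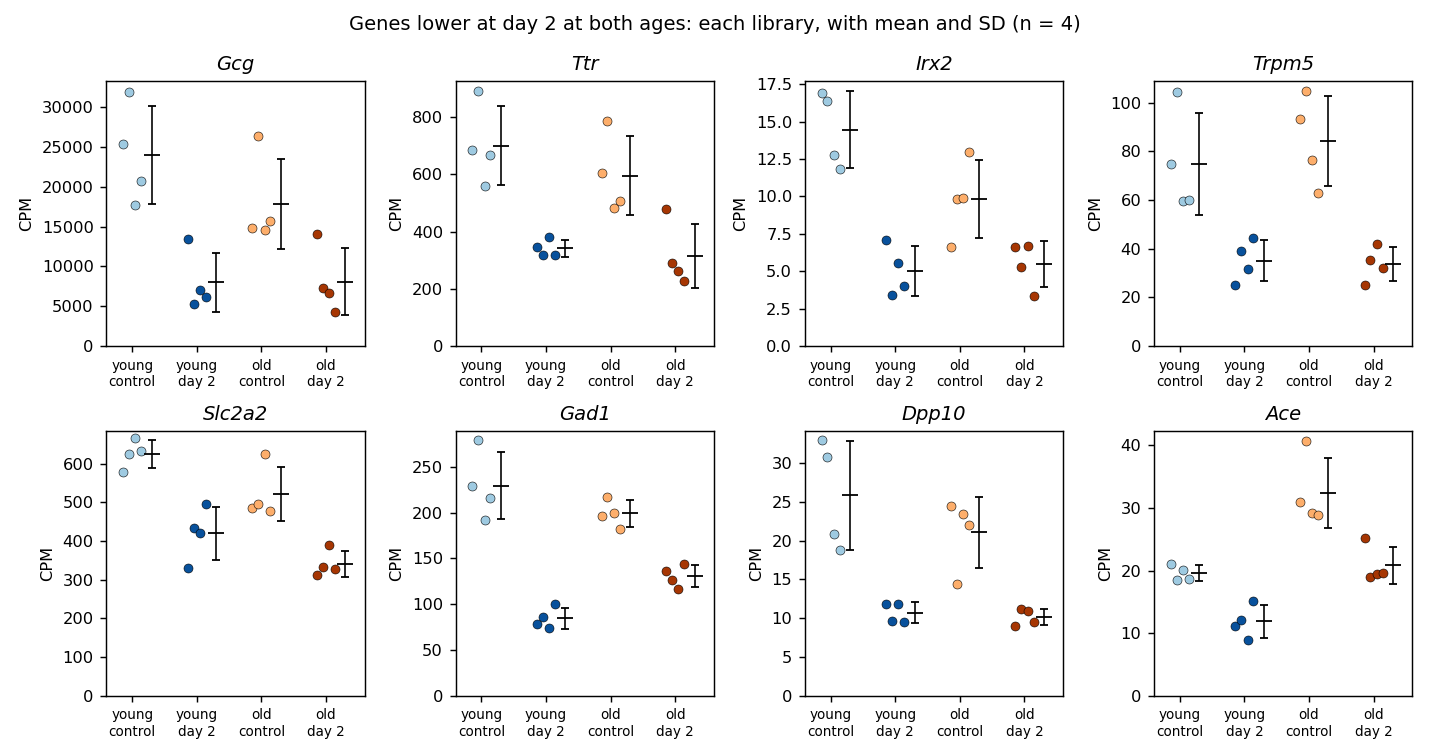
CPM of 8 genes that fell, from 0, one panel per gene, with a point per library and the mean ± SD of the 4 libraries in young control, young day 2, old control and old day 2 islets. Day 2 points lie below all controls of the same age in every panel except Irx2 in old islets.

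Further shared falls were of genes outside the fixed lists. Dpp10 (chr1:125228716-125942136), an auxiliary subunit of Kv4 potassium channels, was at 32.96, 30.7, 20.9 and 18.8 CPM in young controls and 11.9, 9.66, 11.8 and 9.45 CPM at day 2, and at 24.5, 14.3, 23.4 and 22.00 CPM in old controls and 9.05, 11.2, 10.9 and 9.46 CPM at day 2. It was apart at both ages and passed at each alone (-1.27, adjusted p = 0.00187, and -1.05, adjusted p = 0.0434). The average change was -1.16 ± 0.14 (adjusted p = 0.00103), and the first and second run of old islets gave -0.94 and -1.14.

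Tnr, the matrix glycoprotein tenascin-R, changed by -0.65 ± 0.081, Ace, angiotensin-converting enzyme, by -0.68 ± 0.11, and the transcribed pseudogene Ppp4r1l-ps by -0.65 ± 0.097 (adjusted p = 0.00103, 0.00401 and 0.00345), all apart at both ages. Tnr was at 70.6, 85.5, 75.8 and 60.2 CPM in young controls and 39.5, 51.2, 38.4 and 42.4 CPM at day 2, and at 66.6, 70.6, 66.02 and 70.5 CPM in old controls and 52.2, 41.01, 50.8 and 45.8 CPM at day 2. Vwde, a protein with a von Willebrand factor D domain, and Ppp1r17, a phosphatase inhibitor, fell by 1.07 and 1.48 on the log2 scale and were apart at both ages (adjusted p = 0.00789 and 0.0206). The call of Ppp1r17 held in 12 of 16 fits without a library and was lost with the acinar covariate (adjusted p = 0.127).

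Upk3a, a uroplakin, had the largest average fall of the named genes, -1.76 ± 0.28 (adjusted p = 0.00401), with -2.56 in old and -0.97 in young islets (adjusted p of the difference = 0.221). The level was 6.22, 4.68, 3.17 and 3.09 CPM in old controls and 0.526, 0.7696, 0.476 and 1.11 CPM at day 2, without overlap, and at 3.602, 4.63, 2.4 and 3.11 CPM in young controls and 2.29, 2.62, 1.07 and 1.198 CPM at day 2, with overlap. Col27a1, a fibrillar collagen, changed by -1.19 ± 0.29, Cxcr7, an atypical chemokine receptor, by -0.75 ± 0.19, the snoRNA host gene Snhg7 by -0.86 ± 0.22 and Gm20554 by -1.16 ± 0.30. Their calls held in 5, 1, 1 and 2 of 16 fits without a library, and all 4 were lost with the acinar covariate (adjusted p = 0.123 to 0.220).

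Of 29 interferon response genes 1, Iigp1, was called lower (background 1.29%), with a list median of -0.21. In a list of interferon-inducible GTPases set up after their values were seen, 2 of 13 were called lower, Tgtp2 (-0.82 ± 0.20, adjusted p = 0.035) and Iigp1 (-0.90 ± 0.22, adjusted p = 0.036), proteins that attack the vacuoles of intracellular pathogens. Neither was apart at both ages, and the calls held in 6 and 5 of 16 fits without a library and were lost with the acinar covariate (adjusted p = 0.0677 and 0.165).

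Glucocorticoid response genes were called lower for 3 of 21 (background 1.29%), and none higher by edgeR (1 had an unadjusted p below 0.05 for a rise, DESeq2 called 0 and limma 1). These were Fkbp5, Sult1a1 and Tsc22d3. All 3 lost their calls with the collection code and with only the second run for old islets. The list median was -0.28 in young and 0.01 in old islets, and 2 members differed between ages. Sult1a1, a sulfotransferase, was apart at both ages (-1.12 ± 0.24, adjusted p = 0.0218, or 0.0748 with the acinar covariate), and Tsc22d3, the glucocorticoid-induced leucine zipper, changed by -0.76 in young and -0.31 in old islets. Fkbp5, a co-chaperone of the glucocorticoid receptor, is not a shared gene. It was at 173, 189, 129.8 and 131 CPM in young controls and 59.9, 52.4, 51.3 and 70.3 CPM at day 2, and in old islets at 85.7, 110.3, 85.2 and 99.8 CPM in controls and 111, 125, 135 and 143 CPM at day 2. Its 2 changes, -1.42 and 0.43, differed (adjusted p = 0.000504).

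In the remaining lists 0 to 3 members were called in each direction, beside 1.59% higher and 1.29% lower over all genes. Of 25 p53 and DNA damage genes 1 was higher (Aen) and 2 lower (Trp53inp1 and Sesn1), and of 34 cAMP and calcium signalling genes 3 were lower, Cacna1c (-0.53 ± 0.097), Itpr1 (-0.56 ± 0.11) and Adra2a (-0.52 ± 0.11), genes of a calcium channel, a calcium release channel and an inhibitory adrenergic receptor. Of 22 early growth factor genes 1 was lower (Ctgf, -0.64 ± 0.16), and of 19 hypoxia genes 2 (Kdm3a and Mxi1). Of 22 glycolysis and ChREBP target genes Pgk1 was higher (0.52 ± 0.095) and Slc2a2 and Arrdc4 lower. Of 20 oxidative stress genes Gpx2 was higher (0.75 ± 0.19) and of 16 heat shock genes Hspd1 (0.32 ± 0.076). Of the 15 prolactin and growth hormone response genes Cish was higher and Slc2a2 lower. Several of these calls rested on single libraries: those of Sesn1 and Mxi1 held in 2 of 16 fits without a library, Kdm3a and Hspd1 in 3, Gpx2 in 4, Ctgf and Arrdc4 in 8 and Aen in 9. With the acinar covariate Aen, Kdm3a, Mxi1, Ctgf, Pgk1, Arrdc4, Hspd1, Cacna1c and Adra2a lost their calls (adjusted p = 0.0665 to 0.281).

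Over all 14705 genes tested, 16.3% had an unadjusted p below 0.05 by edgeR, DESeq2 called 835 and limma called 2026. By edgeR no gene was called in the acute phase list (16 tested, 2 with an unadjusted p below 0.05, 0 by DESeq2 and 2 by limma) or among the immediate early genes (29 tested, 4 unadjusted, 2 by DESeq2 and 2 by limma). None was called among G2/M genes (51 tested, 7 unadjusted, 1 by DESeq2 and 4 by limma), G1 regulators (18 tested, 4 unadjusted, 1 by DESeq2 and 5 by limma) or the PERK-ATF4 arm (26 tested, 6 unadjusted, 2 by DESeq2 and 8 by limma). The G2/M list nevertheless had a median of 1.12 in young and -0.32 in old islets. Sterol synthesis genes gave none of 20 (4 unadjusted, 2 by DESeq2, 4 by limma), neuroendocrine peptides none of 24 (2 unadjusted, 1 by DESeq2, 2 by limma) and genes normally silent in beta cells none of 17 (0 unadjusted, 0 by DESeq2 and 0 by limma). Among cell type markers no gene was called for acinar (25 tested, 6 unadjusted, 0 by DESeq2, 1 by limma), ductal (15 tested, 2 unadjusted, 0 and 2), fibroblast (25 tested, 4 unadjusted, 1 and 1), Schwann (10 tested, 0 unadjusted, 0 and 0), erythrocyte (1 tested, 1 unadjusted, 0 and 0), lymph node and fat (2 tested, 0 unadjusted, 0 and 0) and mesothelial cells (4 tested, 1 unadjusted, 0 and 0). For acinar markers the average joined opposite moves, with a median of -3.49 in young and 1.51 in old islets, and 2 markers differed between ages. In the first run only, 14 of the 25 acinar markers were called lower (24 unadjusted). Of 19 endothelial markers Esm1 was called lower (-0.48 ± 0.12), beside 1.29% of all genes.

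The later days are set beside day 2 as values only, since they use the same control libraries, with 2 libraries for each age and day. On the log2(CPM + 0.5) scale, relative to the mean of the controls of the same age, Socs3 was 0.66 and 1.01 higher at day 2 in young and old islets, 0.50 and 1.8 at day 7, and 0.27 and -0.10 at day 14. Stat3 was at 0.60 and 0.76, then at 0.12 and 1.08, then at 0.18 and 0.16. Rgs4 was at 0.95 and 1.23, then at 0.44 and 1.73, then at 0.75 and 0.17. In these genes old islets at day 7 thus stood further from their controls than young islets did. Reg3b had 1.91 and 6.84 at day 2, -1.47 and 5.36 at day 7 and -2.67 and -0.57 at day 14. Relb was at 0.57 and 0.52, then at 0.66 and 1.12, then at 1.09 and 0.65, and all 4 libraries lay beyond the controls on both later days.

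Among the falls, Gcg was at -1.64 and -1.23 at day 2, -1.0 and -0.76 at day 7 and -0.42 and -1.13 at day 14. Ttr was at -1.02 and -0.96, then at -0.46 and -0.82, then at -0.41 and -0.73. Both stayed below the control means at both ages on each day. Dpp10 was at -1.20 and -1.0, then at -0.70 and -0.71, then at -0.55 and -0.39, while Trpm5 went from -1.08 and -1.31 to -0.47 and -0.47 and then to -0.14 and 0.10. Ppp1r17 lay beyond the controls in all 8 libraries of the later days. Tgtp2 and Iigp1, lower at day 2, were at 0.10 and 0.82 and at 0.21 and 1.06 on day 7, with no library below the controls.

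**Figure D5:**
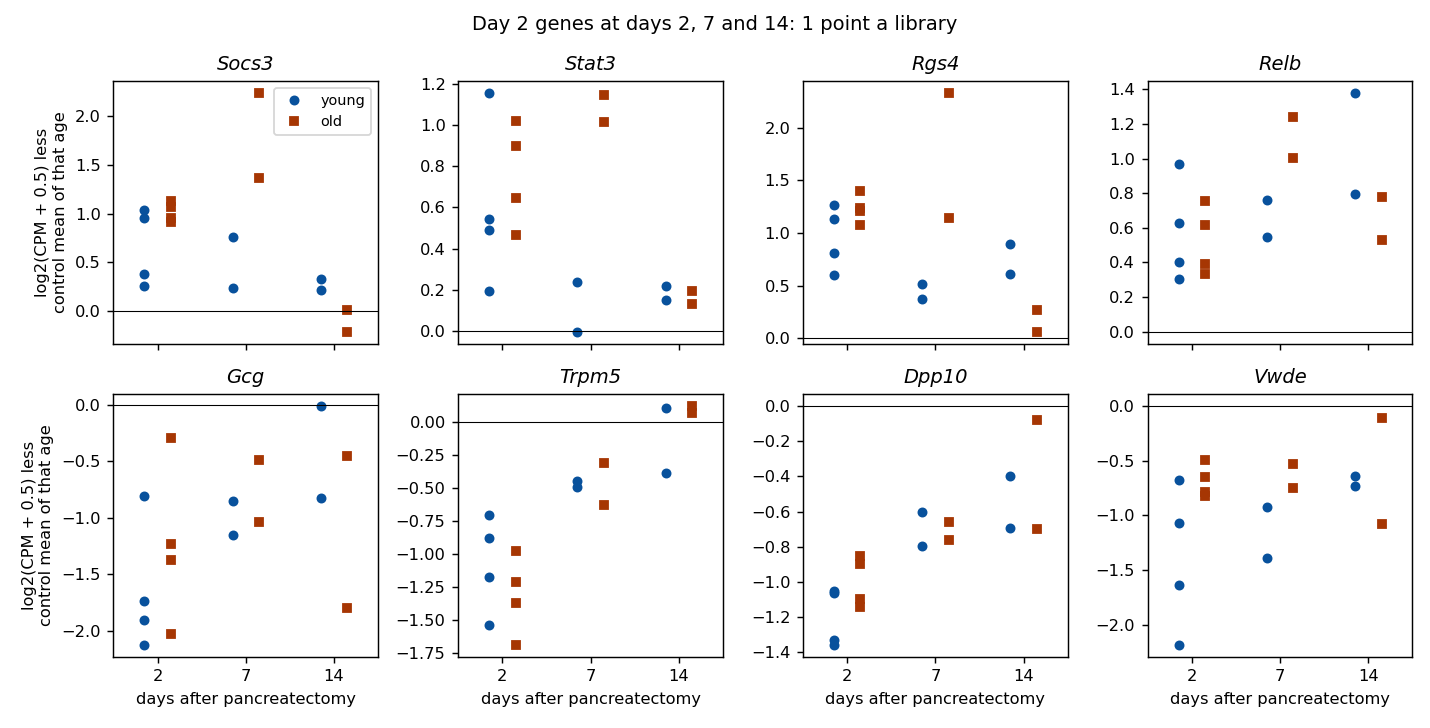
Log2(CPM + 0.5) minus the mean of the controls of the same age at days 2, 7 and 14, for 8 genes in young and old islets, one point per library (4 at day 2, 2 at days 7 and 14). Relb stays above 0 on each day, Gcg, Dpp10 and Vwde have means below 0 throughout, and Trpm5 is near 0 at day 14.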

How the data were processed

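Libraries were made from islet RNA with SMARTer Ultra Low Input chemistry and sequenced as single reads. Per the file headers, reads were aligned to mm9 with TopHat, and rpkmforgenes counted reads with a unique position over RefSeq genes. The submitters' notes name TopHat2 2.1.1, Trimmomatic 0.36 and CASAVA 1.8.2. The study's methods name HISAT2 and HTSeq instead, so the published lists may rest on other counts. The deposited counts are raw whole numbers per gene, and the deposited RPKM values were normalized by the authors to gene length and reads in genes. Of 22197 rows, 1458 join several genes and 441 carry a repeated name, and their reads can be shared. Whether strand was used is not given in the sources used here. The 95% intervals come from the fitted model.

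Groups and days were read from the sample titles, since the treatment field states 2 days for every sample. Counts were scaled by TMM, filtered with filterByExpr on the 4 groups (14705 rows tested) and fitted with edgeR 4.0.16 (R 4.3.3) by glmQLFit and glmQLFTest with 1 term per group. Tests were two-sided and adjusted by Benjamini-Hochberg over all genes tested, threshold 0.05. The change at both ages used the larger of the p-values at the 2 ages, set to 1 where signs differed. Composition measures (summed CPM of a marker list) used an exact permutation within each age (4900 arrangements), adjusted over 12 measures. The scripts were tested on simulated counts.

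The members, lists and tests were chosen with earlier results of these data known, and the acinar covariate and 3 lists (tubulins, ribosome biogenesis, interferon-inducible GTPases) after seeing the values. Genes were named by rule. Among called rows with 1 unrepeated name, the same sign at both ages and a mean log2 CPM above 1, these were the 15 largest rises and the 15 largest falls, ranked by the smaller change at the 2 ages. Reg3a and Reg3g and up to 4 called members of each list by lowest adjusted p were added. Gad1, Tnr, Ace, Ppp4r1l-ps, the further tubulins and the further ribosome biogenesis genes were named after their values were seen. A few genes that the rule or a list gives are not reported here.

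Samples of one group are separate by label, and since 1 or 2 mice made up each, p-values measure the spread between samples. No pair of replicates agreed within counting noise. Same-numbered old libraries deviated together (r = 0.509, 0.441, 0.260 and 0.757 for replicates 1 to 4), which follows the run label, whereas young ones did not at every number (0.377, 0.00599, 0.00880 and 0.266). Different numbers within a run label were not compared, so a pairing of old libraries beyond the run was not tested. The main fit used no pairing, and a block in old islets only was run as an alternative. Alternatives included upper quartile and RLE scaling, DESeq2 1.42.0, other count filters, all 24 libraries, the run label, the share of reads in genes or the acinar level as a covariate, 1 run only, replicate blocks, limma 3.58.1 on log2(RPKM + 1), rows with 1 name, the collection code as a random block and leaving out each library. Positions are from the GENCODE annotation of mm9, and Gm20554 and Ppp1r17 were not matched to it.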

Additional observations from a re-analysis of the deposited data

Results flagged for a closer look

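Of 168 groups of 4 libraries examined, 12 held 1 library far from the others by Dixon's criterion, and chance gives about 1 in 20. Young day 2 replicate 3 stood above its group for Reg3g (21.8 CPM), Reg3a (13.9 CPM) and Reg3b (96.8 CPM), and young control replicate 3 stood below its group for Reg3b (3.0 CPM). Old control replicate 2 was high for Gcg (26332 CPM) and young day 2 replicate 1 for Ppp1r17 (5.03 CPM) and Gm20554 (2.29 CPM), while young day 2 replicate 4 was low for Fam167a (6.12 CPM). In summed markers, young control replicate 4 was high for acinar genes (153569 CPM), old control replicate 2 for erythrocyte genes (29.7 CPM) and young control replicate 1 for lymph node and fat genes (8.28 CPM). The total count of old day 2 replicate 3 was 11349494. Without young day 2 replicate 3, and in each other fit that left out a library, the Reg3 genes kept their calls.

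The change at day 2 differed between young and old islets, by edgeR's test of the difference with an adjusted p below 0.05, for 10 named genes. Young less old on the log2 scale, the differences were -0.88 for Il6ra, -7.63 for Reg2, -1.85 for Fkbp5 and -0.83 for Gad1. They were 1.75 for Mcm6, 1.06 for Rrm1, 2.09 for Timeless, 1.91 for Mcm2, 1.36 for Creld2 and 1.0 for Hspa5. Gad1 was the 1 gene among them that lay apart from controls in the same direction at both ages.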

How the results depend on the processing

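The named genes kept the direction of their average change in all 2735 values computed for 86 results, and 686 of those values no longer passed the threshold. These genes were chosen because they were called in the main fit, and most alternatives reuse its libraries, so kept directions were largely given beforehand. An average direction also need not hold at each age, as with Fkbp5 and Reg2. The 424 genes called on average became 835 with DESeq2, 212 with a filter of at least 1 count in all, 640 with at least 10 counts in every library, 966 and 1129 with a covariate for run label or for percent of mapped reads in genes, 59 with only the second run for old islets, 1030 with the replicate block within each age, 805 with it in old islets only, 103 with a random block for collection code and 173 with the acinar level as a covariate. Limma on RPKM called 2026, of which 96.3% were higher, and its median over all genes was 0.11. The share called higher was also 43.9% with the acinar covariate and 39.6% without old control replicate 4. Leaving out 1 library gave 170 to 376. The change at both ages after adjustment, 0 by the edgeR test, gave 8 with DESeq2, 1 with limma, 4 with the replicate block within each age and 4 with the acinar covariate. Unadjusted, the 216 became 346 with the run label, 106 with the second run for old islets, 394 with the replicate block within each age, 336 with the share of reads in genes, 132 with the collection code and 100 with the acinar covariate. The 105 genes that differed between ages became 177 with upper quartile scaling, 428 with DESeq2, 27 and 226 with the filters of 1 and 10 counts, 248 with all 24 libraries, 344 with the run label, 66 with the second run for old islets, 432 and 259 with the replicate block within each age and in old islets only, 537 with the share of reads in genes, 663 with limma, 4 with the collection code, 51 with the acinar covariate, and 8 to 139 without 1 library. The other endocrine sum was -8889.6 CPM in the first run only (adjusted p = 0.1000) and -10048 to -7480 CPM without 1 library. Leaving out 1 library, the beta cell sum ran from -30158 to -20849 CPM and the endothelial sum from -120.1 to -71.3 CPM. Those of the share of reads in genes (-3.35 to 2.38 points), fibroblast (-57.6 to 42.7), Schwann (-2.27 to 14.1), lymph node and fat (-0.443 to 0.917) and mesothelial markers (-3.89 to 3.70 CPM) changed sign. The cause of these shifts was not tested. With 4 libraries a group and few reads for genes such as Reg3g and Ccl7 in controls, sizes of change are uncertain. No sham operation separates removal of tissue from surgery. Fitting each age separately gave 0 genes adjusted and 195 unadjusted at both ages.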
